A study of Mus musculus with 18 samples.

Results

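The vesicle fusion machinery of regulated exocytosis was followed through 76 genes, taken from the 55335 genes of the count table by name alone: the synaptotagmins (Syt), the synaptotagmin-like proteins (Sytl), the syntaxins (Stx) and their binding proteins (Stxbp), the VAMPs, the complexins (Cplx), the Rab3 and Rab27 GTPases, the Unc13 and Rims genes, and Snap23, Snap25, Snap29, Snap47 and Snap91. Of the 76, Vamp7-ps and Stxbp3-ps are pseudogenes, and Snap91 encodes a clathrin adaptor that shares only its name with the SNAP proteins. A further 8 are syntaxins of membranes inside the cell, grouped here under the name Golgi and endosomal syntaxins.

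Crypts, the epithelial glands that house the stem cells of the gut, were isolated from the small intestine of PRMT1fl/fl mice aged 8 to 12 weeks with or without Vil-CreERT2, a Cre that tamoxifen switches on in cells using the villin promoter. Mice with it are PRMT1indΔIEC (KO) and those without it serve as WT; every mouse of both genotypes carried floxed Prmt1 and received 2 mg tamoxifen at each injection. Collection was at day 2, after 2 injections, or at day 7 or 14, after 5 injections, where day 0 is the day of the initial injection. Each of the 6 groups (KO or WT at day 2, 7 or 14) held 3 libraries, and the comparison asked which fusion genes differed once Prmt1, a protein arginine methyltransferase gene, had been deleted from the epithelium.

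In regulated exocytosis a vesicle is filled ahead of need and fuses when calcium rises. A VAMP on the vesicle pairs with a syntaxin and a SNAP25 family protein on the plasma membrane to form the SNARE complex that draws the membranes together. Stxbp proteins hold or shape the syntaxin, Unc13 and Rims proteins dock and prime the vesicle, Rab3 and Rab27 mark it as a secretory vesicle, and complexins and synaptotagmins tie fusion to calcium. In the crypt, Paneth cells release antimicrobial granules, goblet cells release mucin and the rare enteroendocrine cells (EECs) release hormones from dense-core granules, the last with a set of SNARE proteins also used by neurons.

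The libraries held 12844642 to 31493484 counted fragments (median 21266804.5), of which the 76 genes took 0.115% to 0.136%. Levels are CPM, counts scaled to library size with TMM factors, and RPKM is CPM per kilobase of annotated exon. Prmt1 itself fell in KO at each day, by 0.89, 0.59 and 0.72 on the log2 scale at days 2, 7 and 14 (adjusted p = 0.0264, 0.00675 and 0.00329). The KO and WT libraries did not overlap on any day, although the day 2 call was lost when any of its 6 libraries was left out (adjusted p = 0.0816 to 0.183). Markers of crypt cells were present throughout, the 6 stem cell markers summing to 412 to 1930 CPM per library and the 6 Paneth markers to 1402 to 20336 CPM. Crypts are a mixture, so fewer cells of a type and less RNA per cell cannot be told apart in any value given here.

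RefSeq (GRCm38.p6) gives a start site for 57 of the 76 genes and for 8 of the 13 called higher at day 7 or 14 in the comparisons that follow. The 250 bases before that start are printed for 5 of the called genes whose start coincides, within 5 bases, with the start in the count table: Stx1a at chr5:135023232-135023481 (plus strand), Cplx1 at chr5:108550028-108550277 (minus strand), Stxbp5l at chr16:37384959-37385208 (minus strand), Syt14 at chr1:193035776-193036025 (minus strand), all called higher, and Unc13b at chr4:43058703-43058952 (plus strand), called lower. Each is written 5′ to 3′ towards the gene, and capitals mark CAGCTG, an E-box of the kind that basic helix-loop-helix factors bind, and GGGCGG, the GC box, on either strand (the GC box on the other strand reads CCGCCC).
Stx1a: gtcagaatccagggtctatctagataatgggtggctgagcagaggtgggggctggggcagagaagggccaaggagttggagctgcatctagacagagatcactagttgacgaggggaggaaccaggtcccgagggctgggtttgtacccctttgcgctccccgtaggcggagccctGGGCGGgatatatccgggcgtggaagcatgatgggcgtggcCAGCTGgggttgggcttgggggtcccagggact
Cplx1: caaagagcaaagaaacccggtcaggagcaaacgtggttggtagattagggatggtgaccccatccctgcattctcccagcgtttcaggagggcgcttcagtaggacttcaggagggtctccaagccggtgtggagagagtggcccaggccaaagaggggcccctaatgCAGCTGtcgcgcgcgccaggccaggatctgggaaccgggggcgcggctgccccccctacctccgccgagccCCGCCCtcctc
Stxbp5l: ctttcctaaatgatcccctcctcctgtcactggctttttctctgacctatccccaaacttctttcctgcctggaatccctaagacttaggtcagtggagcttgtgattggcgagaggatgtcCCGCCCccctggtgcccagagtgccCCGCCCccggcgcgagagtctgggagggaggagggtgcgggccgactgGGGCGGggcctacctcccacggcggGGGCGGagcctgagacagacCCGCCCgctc
Syt14: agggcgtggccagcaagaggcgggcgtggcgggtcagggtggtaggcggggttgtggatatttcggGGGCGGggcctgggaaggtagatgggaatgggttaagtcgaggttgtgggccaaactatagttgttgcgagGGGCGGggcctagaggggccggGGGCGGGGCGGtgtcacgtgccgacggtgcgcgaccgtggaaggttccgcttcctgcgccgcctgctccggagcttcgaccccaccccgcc
Unc13b: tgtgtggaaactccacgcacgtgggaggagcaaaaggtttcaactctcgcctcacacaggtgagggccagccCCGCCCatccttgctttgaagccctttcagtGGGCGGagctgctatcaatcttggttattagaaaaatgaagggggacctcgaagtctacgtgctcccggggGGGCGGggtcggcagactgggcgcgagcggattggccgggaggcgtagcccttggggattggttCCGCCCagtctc
The Stx1a window held CAGCTG 33 bases and the Cplx1 window 82 bases before the start, and the other 3 windows held none. GC boxes numbered 1 in Stx1a, 1 in Cplx1, 5 in Stxbp5l, 4 in Syt14 and 4 in Unc13b, so the gene that fell carried as many as a gene that rose. The windows were 62.0%, 64.8%, 64.8%, 69.2% and 60.8% G or C in that order, against a median of 52.4% over all 32851 windows of the table. Syt8, also called higher, has a start that coincides in the same way, but its window (chr7:142434600-142434849, plus strand) is not printed. That window held 0 GC boxes and 0 CAGCTG and was 54.8% G or C.

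Over the family, at least 1 CAGCTG stood in the windows of 17 of the 57 genes with a window (29.8%), compared with 14.7% of the 27025 genes of the table, which include genes that crypts do not express. Among the 8 called higher it was found in 5 (Stx1a, Cplx1, Cplx2, Rab3c and Stx4a). GGGCGG stood in 39 of the 57 (68.4%) and in 6 of the 8, compared with 35.4% of all genes. Any E-box, CANNTG, which includes CAGCTG and CAGATG, was found in 44 of 57 and 7 of 8, compared with 69.3%. The E-box CAGATG was found in 6 of 57 and 0 of 8 (16.3% of all genes), TATAAA in 3 and 0 (14.3%), CCAAT in 21 and 3 (37.5%) and TGACG in 16 and 2 (19.8%), both strands being searched for each. These matches describe the letters of the windows only.

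Most of the machinery was measurable in WT crypts, at levels that differed widely between members of a role group. Per exon length over the 9 WT libraries, the VAMPs were led by Vamp3 at 22.4 ± 6.62 RPKM (SD) and Vamp8 at 18.5 ± 4.49 RPKM, both known from constitutive and granule fusion outside neurons. Stxbp2, the partner of Stx3 in epithelia, stood at 19.7 ± 0.960 RPKM and Stx3, the apical syntaxin, at 9.66 ± 1.82 RPKM. Stx12, an endosomal syntaxin, stood at 21.9 ± 4.35 RPKM, Rab3d, the Rab3 of exocrine granules, at 10.5 ± 1.96 RPKM, and Snap29 at 7.97 ± 1.53 RPKM. The highest of the other role groups were Sytl2 (6.26 RPKM), Unc13b (4.62 RPKM), Syt7 (1.85 RPKM) and Cplx2 (1.25 RPKM). Stx1a (1.01 ± 0.284 RPKM), Snap25 (0.207 ± 0.0767 RPKM), Stxbp5l (0.370 ± 0.110 RPKM) and Rims4 (0.0326 ± 0.0136 RPKM) were low.

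**Figure D1:**
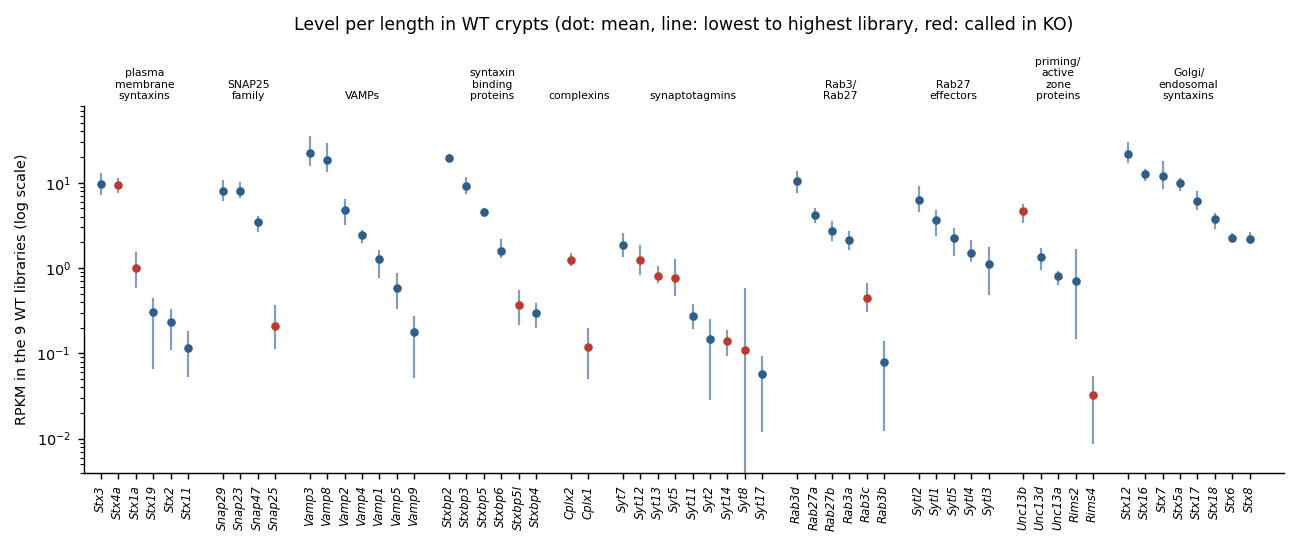
Level per exon length (RPKM, log axis) of 58 tested genes in the 9 WT libraries, grouped by role; dots are means, lines run from the lowest to the highest library, and red marks genes called in KO at day 7 or 14. Among the red dots those of Stx4a and Unc13b are highest, at 9.29 and 4.62 RPKM.

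After the filter on low counts 61 of the 76 genes could be tested. The 15 others were Cplx3, Cplx4, Rims1, Rims3, Unc13c, Snap91, Vamp7-ps and the synaptotagmins Syt1, Syt3, Syt4, Syt6, Syt9, Syt10, Syt15 and Syt16. None of them exceeded 15 counts in a library, and Syt10 had 0 counts in all 18 libraries, which allows up to 3 counts in each; at this depth no statement about them is made. Among the tested genes 7 (Cplx1, Rab3b, Rims4, Stxbp3-ps, Syt8, Syt17 and Vamp9) passed the filter level of 0.471 CPM in fewer than 3 WT libraries and so owed their place largely to KO libraries; 3 of these 7 were called, Cplx1, Rims4 and Syt8.

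At day 2 none of the fusion genes was called. By the quasi-likelihood test of edgeR, adjusted by Benjamini-Hochberg over the 21349 tested genes, 0 of the 61 were called (adjusted p under 0.05), 0 had an unadjusted p under 0.05, and DESeq2 also called 0. Over all genes 0.0328% were called at day 2. The median log2 fold change of the 61 was 0.01, with a range from -0.42 to 0.76. The KO libraries lay wholly above WT for 5 of the 61 and wholly below for 2. The same count was not made over all tested genes, so nothing is drawn from it.

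At day 7, 10 of the 61 were called higher in KO, where 7.11% of all tested genes were, and 1 was called lower, where 10.2% of all tested genes were. Those higher were Cplx1, Rims4, Snap25, Stx1a, Stxbp5l, Syt5, Syt8, Syt12, Syt13 and Syt14, and the gene lower was Unc13b. The median over the 61 was 0.19 and over all genes 0.02. At day 14, 9 of the 61 were called higher, compared with 3.23% of all tested genes, and again Unc13b alone lower, compared with 4.69%. Here Rims4, Snap25, Stx1a, Stxbp5l, Syt13 and Syt14 were joined by Cplx2, Rab3c and Stx4a, and the medians were 0.13 and 0.00. Of the 54 tested genes that passed the filter level in at least 3 WT libraries, 7 were called higher at day 7 and 8 at day 14. The share of all genes called under that same condition was not counted. The 6 genes higher on both days, of which Rims4 is not among these 54, make up 60% of the day 7 list and 66.7% of the day 14 list; the days have separate control mice. For every called gene the KO libraries of that day lay wholly on the called side of the WT libraries, which describes genes already picked by the call.

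**Figure D2:**
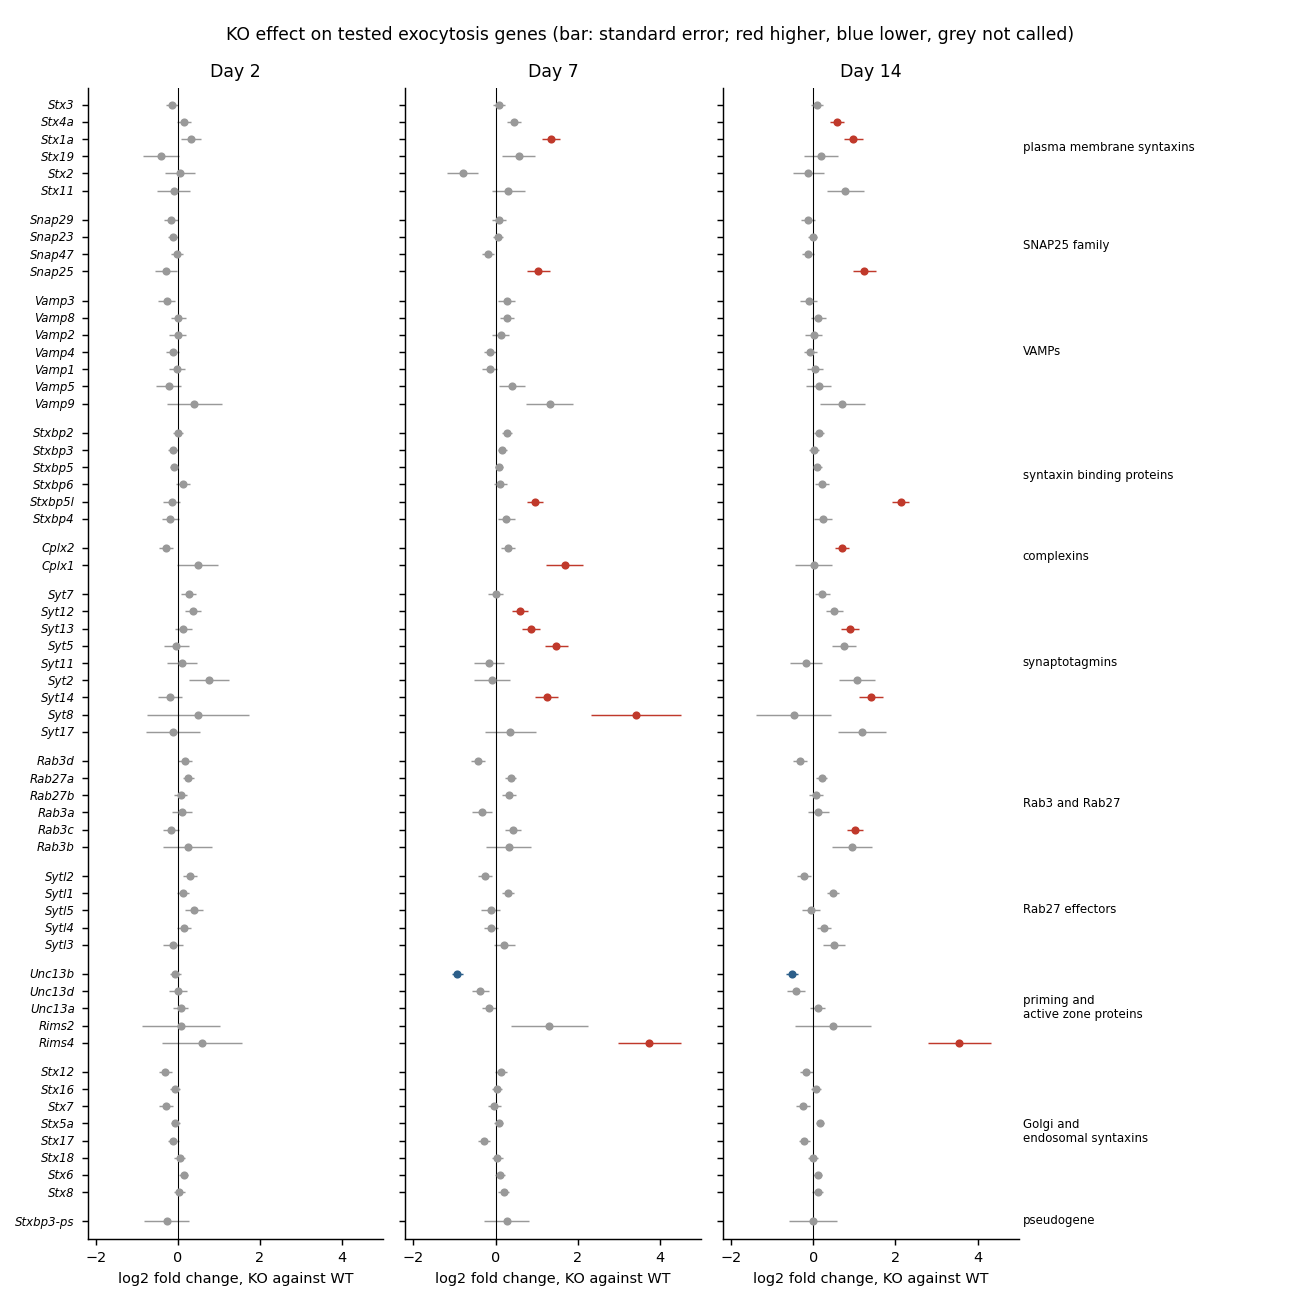
Log2 fold change of KO against WT (x axis, bars are standard errors) for 59 of the 61 tested genes by role at days 2, 7 and 14; red genes were called higher, blue lower, grey neither. No gene is coloured at day 2, 11 are at day 7 and 10 at day 14, and the VAMPs, the Rab27 effectors and the Golgi and endosomal syntaxins are grey on every day.

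Positions of genes are given on mm10 as in the count table, from the start to the end of the annotated gene. Of the 7 plasma membrane syntaxins, the target-membrane SNAREs, 1 rose at day 7 and 2 at day 14; over all tested genes 7.11% and 3.23% were called higher on these days, and every count by role is to be read against those shares. Stx1a (chr5:135023482-135051100, plus strand), the syntaxin of neurons and endocrine cells, measured 6.98, 7.20 and 8.34 CPM in the KO libraries of day 7 and 3.31, 2.30 and 3.11 CPM in WT. At day 14 the values were 6.85, 4.29 and 7.96 CPM in KO and 4.0, 2.84 and 2.97 CPM in WT. The groups did not overlap on either day, though the second KO mouse of day 14 came close to the highest WT mouse. The log2 fold changes were 1.35 (SE 0.22, adjusted p = 0.00035) and 0.98 (SE 0.23, adjusted p = 0.0104). The day 14 call was lost without KO day 14 replicate 3 (adjusted p = 0.0635) and without WT day 14 replicate 2 (adjusted p = 0.0528), and also when only the 2 groups compared were modelled (adjusted p = 0.0535).

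Stx4a (chr7:127824294-127849019, plus strand), a broadly expressed plasma membrane syntaxin, measured 31.8, 34.6 and 38.7 CPM in KO and 23.9, 23.7 and 22.8 CPM in WT at day 14, with all KO libraries higher. Its log2 fold change was 0.58 (SE 0.17, adjusted p = 0.0434), and the call did not survive leaving out any 1 of the 6 libraries (adjusted p = 0.0568 to 0.147). With the replicate number as a block the adjusted p was 0.0553, and with a block inside each day it was 0.0325. Stx3, the most abundant of this group per length, differed by 0.09 (SE 0.14) at day 7 and 0.08 (SE 0.14) at day 14, and its groups overlapped on all 3 days.

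Of the 4 SNAP25 family genes only Snap25 (chr2:136713453-136782428, plus strand), the neuronal and endocrine form, was called. It measured 2.62, 2.28 and 2.40 CPM in KO at day 7, where WT gave 1.30, 1.02 and 1.18 CPM, and 2.85, 2.78 and 1.75 CPM in KO at day 14, where WT gave 1.59, 0.790 and 0.880 CPM. Every KO library was above every WT library on both days. The changes were 1.04 (SE 0.27, adjusted p = 0.0106) and 1.24 (SE 0.28, adjusted p = 0.00893), the latter lost without WT day 14 replicate 2 (adjusted p = 0.057) and with only the 2 groups modelled (adjusted p = 0.0624). Snap29 differed by 0.09 and -0.13 (SE 0.17 each) at days 7 and 14.

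None of the 7 VAMPs tested was called on any day, and 1 of them had an unadjusted p under 0.05 at day 7. Vamp2, the vesicle SNARE of neurons and endocrine granules, measured 18.7, 19.8 and 25.6 CPM in KO and 23.6, 15.9 and 19.1 CPM in WT at day 7, so the groups overlapped. Its difference was 0.12 (SE 0.20) at day 7 and 0.01 (SE 0.20) at day 14. For Vamp3 the values were 0.27 (SE 0.21) and -0.11 (SE 0.21).

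Among the 7 syntaxin binding proteins Stxbp5l (chr16:37114942-37384962, minus strand) rose on both days. It encodes tomosyn-2, a protein that competes for the syntaxin and SNAP25 pair and restrains fusion. Day 7 gave 6.63, 6.25 and 8.51 CPM in KO and 4.21, 3.64 and 3.11 CPM in WT, and day 14 gave 9.65, 9.59 and 8.36 CPM in KO and 2.34, 1.90 and 2.13 CPM in WT. At day 14 the lowest KO library was far above the highest WT library, and the change was 2.12 (SE 0.22, adjusted p = 6.32e-06) after 0.96 (SE 0.20, adjusted p = 0.00271) at day 7. Both calls held with each library left out in turn. The WT level at day 14 was itself below that of WT at day 2 (4.59, 3.65 and 2.79 CPM), a difference of -0.80 that edgeR did not call (adjusted p = 0.0577) and DESeq2 did (adjusted p = 0.0201). Stxbp2 differed by 0.29 (SE 0.12, adjusted p = 0.111) at day 7.

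Complexins clamp and then help release the assembled SNARE complex, and 2 of 4 were tested. Cplx1 (chr5:108518554-108550024, minus strand) had 14, 16 and 17 counts in the KO libraries of day 7 and 4, 2 and 7 counts in WT, with no overlap. The ratio of its summed level was 3.24 (exact 95% interval 1.73 to 6.53, counting error only), and the fitted change of 1.68 (SE 0.44, adjusted p = 0.0112) was lost without WT day 7 replicate 1 (adjusted p = 0.0721). At day 14 the Cplx1 groups overlapped (0.01, SE 0.45). Cplx2 (chr13:54371349-54383917, plus strand) rose at day 14, with 10.2, 10.3 and 11.7 CPM in KO and 6.19, 7.15 and 6.4 CPM in WT, by 0.71 (SE 0.17, adjusted p = 0.0131). Without KO day 14 replicate 3 that call was lost (adjusted p = 0.0591).

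The synaptotagmins, membrane proteins of which several are the calcium sensors of fusion, held the most calls of any role group at day 7: 5 of 9 tested rose then, where 7.11% of all tested genes did, and 2 at day 14, where 3.23% did. Syt13 (chr2:92915098-92956058, plus strand), an atypical member described as a marker of endocrine progenitors in the pancreas, measured 4.98, 6.35 and 6.16 CPM in KO and 2.81, 3.39 and 3.46 CPM in WT at day 7, and 6.32, 5.49 and 4.45 CPM against 2.95, 3.24 and 2.55 CPM at day 14. Its groups were apart on both days, with changes of 0.86 (SE 0.21, adjusted p = 0.00711) and 0.90 (SE 0.21, adjusted p = 0.0121). The day 14 call was lost without KO day 14 replicate 1 (adjusted p = 0.0653) and without WT day 14 replicate 3 (adjusted p = 0.0528).

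Syt14 (chr1:192891233-193035775, minus strand), a synaptotagmin that does not bind calcium, measured 4.89, 4.21 and 2.58 CPM in KO and 1.40, 1.53 and 1.97 CPM in WT at day 7, and 4.11, 3.28 and 3.24 CPM in KO and 1.13, 1.18 and 1.67 CPM in WT at day 14. The third KO mouse of day 7 was nearest to WT and still above it. The changes were 1.25 (SE 0.28, adjusted p = 0.00418) and 1.40 (SE 0.29, adjusted p = 0.00483), and both held with each library left out.

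Syt5 (chr7:4539765-4547541, minus strand), a calcium sensor found on dense-core vesicles, measured 4.49, 4.18 and 5.81 CPM in KO and 2.09, 1.15 and 1.84 CPM in WT at day 7, a rise of 1.48 (SE 0.28, adjusted p = 0.00131) that held with each library left out. At day 14 the KO libraries spanned 2.74 to 4.72 CPM and the WT libraries 1.51 to 2.92 CPM. These overlap, and the difference of 0.75 (SE 0.29) was not called (adjusted p = 0.127), although with a replicate block inside each day it was (0.78, adjusted p = 0.0415).

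Syt12 (chr19:4445908-4477447, minus strand), which has no calcium-binding sites, measured 11, 10.2 and 11.7 CPM in KO and 7.95, 6.65 and 7.14 CPM in WT at day 7. Its rise of 0.60 (SE 0.19, adjusted p = 0.0372) was lost whichever of the 6 libraries was left out (adjusted p = 0.057 to 0.117). Exons of the opposite-strand gene A930001C03Rik cover 17.2% of the exon length of Syt12, and reads of the pair cannot be told apart in these counts.

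Syt8 (chr7:142434850-142440396, plus strand) had 25, 15 and 11 counts in KO and 3, 1 and 0 counts in WT at day 7, but 23 counts in the third WT library of day 14. The ratio of its summed day 7 level was 11.4 (exact 95% interval 4.2 to 43.6, counting error only), and the fitted change of 3.42 (SE 1.09, adjusted p = 0.0311) depends on the prior count. Without KO day 7 replicate 1 or any of the 3 WT libraries the adjusted p was 0.0625 to 0.123, with the change at 4.45 without WT day 7 replicate 1, and with a replicate block inside each day 0.053. Syt7, the calcium sensor of many endocrine granules and the most abundant synaptotagmin per length here, was, like Syt2, Syt11 and Syt17, called on neither day: it measured 16.7, 13 and 17.2 CPM in KO and 15.6, 12.5 and 18.6 CPM in WT at day 7, and its differences were -0.00 and 0.22 (SE 0.18 each) at days 7 and 14.

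**Figure D3:**
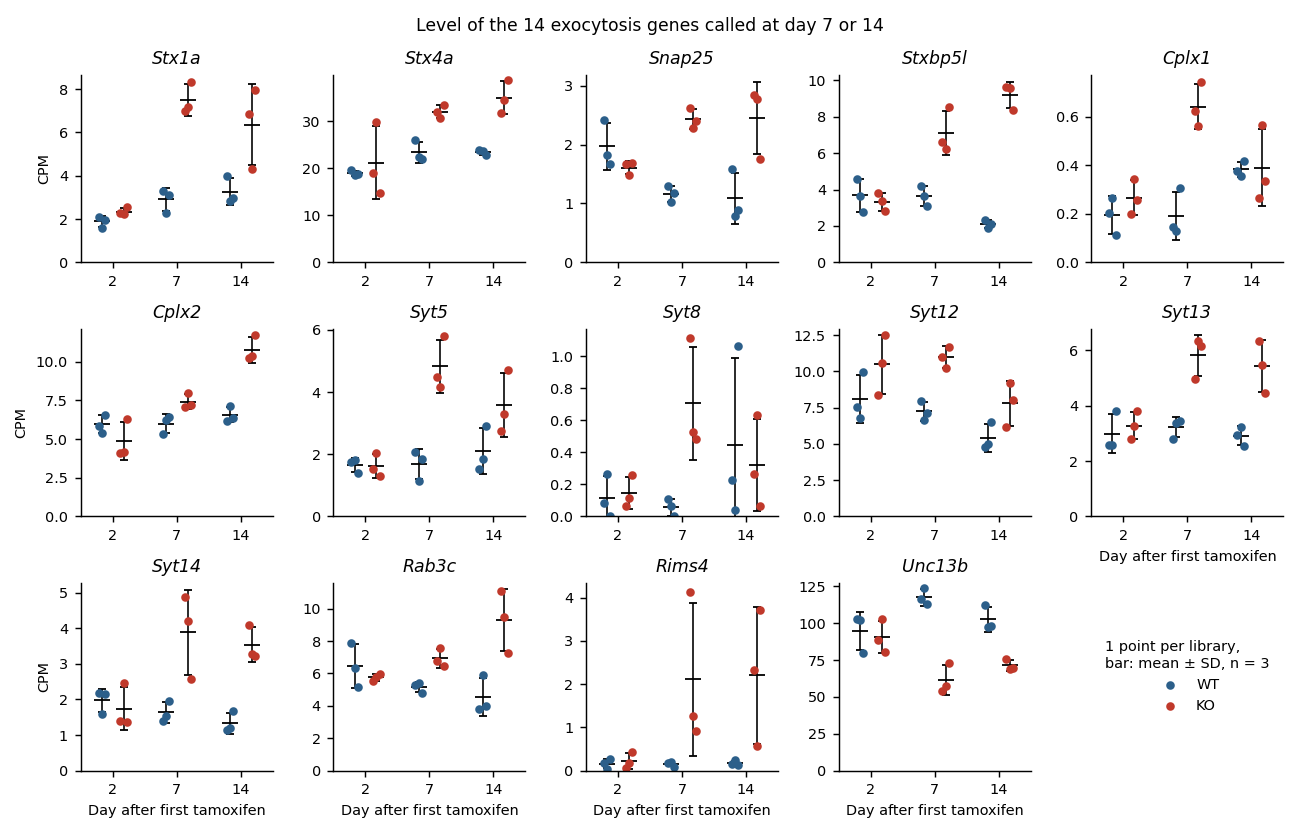
CPM per library of the 14 genes called at day 7 or 14, by day, with the mean ± SD of the 3 libraries of a group (blue WT, red KO). At day 2 the colours are mixed in nearly all panels; Unc13b is the panel in which KO lies below WT at days 7 and 14.

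Of the 6 Rab3 and Rab27 genes, the GTPases of secretory vesicles, Rab3c was called at day 14 and none at day 7. Rab3c (chr13:110054187-110280996, minus strand) measured 11.1, 9.46 and 7.29 CPM in KO and 3.78, 5.92 and 3.99 CPM in WT at day 14, without overlap, a rise of 1.01 (SE 0.20, adjusted p = 0.00341) that held with each library left out. At day 7 its KO libraries were also all above WT (6.46 to 7.58 against 4.82 to 5.43 CPM), but the difference of 0.42 was not called (adjusted p = 0.16). Rab3d had 37.4, 37.5 and 29.4 CPM in KO and 46.6, 38.7 and 54.1 CPM in WT at day 7 (-0.42, SE 0.17, adjusted p = 0.0992). Rab27a had 22.3, 21 and 19 CPM in KO and 16.5, 13.6 and 18 CPM in WT (0.37, SE 0.13, adjusted p = 0.0636), and was called by DESeq2 (adjusted p = 0.0408), without KO day 7 replicate 3 (adjusted p = 0.0316) and without WT day 7 replicate 3 (adjusted p = 0.0494). Rab3a, the form abundant at synapses, differed by -0.32 (SE 0.24) at day 7 and 0.13 (SE 0.24) at day 14. None of the 5 Sytl genes, the Rab27 effectors, was called on any day; Sytl2 differed by -0.26 and -0.23 (SE 0.17 each) at days 7 and 14.

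The priming and active zone genes held changes in both directions. Rims4 (chr2:163859751-163918683, minus strand), which encodes a short RIM protein of the presynaptic active zone, had 93, 36 and 21 counts in KO and 5, 3 and 2 counts in WT at day 7, and 44, 9 and 55 counts in KO and 2, 6 and 3 counts in WT at day 14. All KO libraries were above all WT libraries, but the KO libraries differed among themselves by several fold (0.917 to 4.14 CPM at day 7). The ratio of summed levels was 13.5 (exact 95% interval 7.12 to 28.6) at day 7 and 11.9 (6.39 to 24.5) at day 14, counting error only. The fitted changes were 3.74 (SE 0.76, adjusted p = 0.00223) and 3.55 (SE 0.76, adjusted p = 0.00604), and both calls held with each library left out, the day 7 change being 2.83 (adjusted p = 0.0145) without KO day 7 replicate 1.

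Unc13b (chr4:43058953-43264871, plus strand), the Munc13-2 gene, whose product opens the syntaxin for SNARE assembly, was the gene that fell. It measured 54.3, 57.2 and 73.1 CPM in KO and 116, 124 and 113 CPM in WT at day 7, and 75.9, 69.1 and 69.8 CPM in KO and 112, 97.6 and 98.1 CPM in WT at day 14. The groups stood well apart on both days, while at day 2 they overlapped (80.6 to 103 CPM in KO and 79.5 to 103 CPM in WT). The changes were -0.93 (SE 0.14, adjusted p = 0.000119) and -0.52 (SE 0.14, adjusted p = 0.0229). The day 7 call held with each library left out, while the day 14 call was lost in 5 of 6 cases, all except the one without WT day 14 replicate 2 (adjusted p up to 0.1). The other tested members, Unc13a, Unc13d and Rims2, were not called. Rims2 varied widely within groups, at 10.4, 9.30 and 28.6 CPM in KO and 1.76, 17 and 1.58 CPM in WT at day 7 (1.31, SE 0.94, adjusted p = 0.393), and it was called only without WT day 7 replicate 2 (3.26, adjusted p = 0.0385); it is named here after its values were seen.

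None of the 8 Golgi and endosomal syntaxins, which serve transport inside the cell, was called, with differences from -0.28 to 0.19 at day 7 and from -0.24 to 0.16 at day 14. Stx12 differed by 0.14 and -0.17 (SE 0.15 each).

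The KO effect itself was compared between days, with separate mice on each day. From day 2 to day 7 it changed for 4 of the 61 genes, where 4.37% of all tested genes were called: upwards by 1.52 for Syt5 (SE 0.42, adjusted p = 0.0425), by 1.44 for Syt14 (SE 0.40, adjusted p = 0.0478) and by 1.11 for Stxbp5l (SE 0.29, adjusted p = 0.035), and for Unc13b it changed by -0.87 (SE 0.19, adjusted p = 0.0141). Leaving out 1 of the 12 libraries ended the call in 9 of 12 cases for Syt5, 9 for Syt14 and 8 for Stxbp5l, and for Unc13b only without KO day 7 replicate 1 (adjusted p = 0.0562). With the replicate number as a block 3 were called, Syt5 and Syt14 dropping out and Snap25 entering (adjusted p = 0.0417). From day 7 to day 14, 0 of the 61 were called, as for all tested genes (0%), and 0 by DESeq2. An unadjusted p under 0.05 held for 4 of them (953 of all 21349 tested genes). Of those 4, Stxbp5l had the largest gain, 1.17 (SE 0.29, unadjusted p = 0.000781).

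Tamoxifen exposure and age differ between the days, so WT was also compared over time. At day 7 against day 2, 0 of the 61 were called in WT by edgeR (0.553% of all tested genes) and 4 by DESeq2. Over all 21349 tested genes DESeq2 called 670 higher and 785 lower. An unadjusted p under 0.05 in edgeR held for 16 of the 61 and for 4792 of all tested genes. At day 14 against day 2, 0 were called by edgeR (1.61% of all tested genes) and 6 by DESeq2, which called 626 higher and 747 lower over all tested genes. An unadjusted p under 0.05 in edgeR held for 17 of the 61 and for 4271 of all tested genes. Vamp3 measured 85.8, 70.1 and 101 CPM in WT at day 2 and 46.8, 62.9 and 47.2 CPM at day 7, without overlap but not called in the main edgeR fit (-0.71, SE 0.21, adjusted p = 0.081). It was called by DESeq2 (adjusted p = 0.0333), and by edgeR with no filter (adjusted p = 0.00961) and with only the groups compared (adjusted p = 0.0448). For Stx1a the WT difference of day 14 against day 2 was 0.77 (SE 0.24, adjusted p = 0.0817) and for Snap25 -0.91 (SE 0.28, adjusted p = 0.0808), values of a size near that of their KO effect. DESeq2 called both (adjusted p = 0.0366 for Stx1a and 0.0416 for Snap25). Markers of other cells moved between the WT groups too: the 8 enterocyte markers had a median difference of -1.14 at day 7 and -1.20 at day 14 against day 2, with 0 and 1 called lower, and summed to 11221 to 24841 CPM at day 2, 7402 to 10570 CPM at day 7 and 3977 to 10967 CPM at day 14. For the 8 T and NK cell markers the medians were -0.79 and -1.03 with 0 called, and the sums 169 to 231 CPM at day 2, 63.5 to 178 CPM at day 7 and 76.9 to 122 CPM at day 14. Their part in the members' WT differences was not tested.

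Shares of paralogs within a library do not depend on library size. Snap25 made up 4.36%, 4.38% and 4.71% of the summed RPKM of Snap23 and Snap25 in KO at day 7, where WT had 2.27%, 2.10% and 2.5%, and 3.64% to 5.89% in KO at day 14, where WT had 1.64% to 3.15%. Stxbp5l made up 14.2% to 17.8% of Stxbp5 and Stxbp5l in KO and 8.12% to 9.63% in WT at day 7, and 17% to 18.8% and 4.45% to 6.11% at day 14. Stx1a was 9.58% to 11.6% of the plasma membrane syntaxins in KO and 4.21% to 5.97% in WT at day 7, while at day 14 the groups overlapped (5.80% to 10.5% and 5.09% to 7.65%). In all 18 libraries Snap23 and Stxbp5 stayed the larger share of their pairs.

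Unc13b made up 57.4% to 58.5% of the Unc13 genes in KO and 66.6% to 71.7% in WT at day 7, with overlap at day 14. Cplx1, by contrast, made up 13.6% to 18.8% of Cplx1 and Cplx2 in KO and 4.39% to 9.68% in WT at day 7, again with overlap at day 14. The 4 genes Syt5, Syt12, Syt13 and Syt14, chosen because they were called higher at day 7 (Syt8, the other called, has few counts), together held 62.0% to 69.5% of synaptotagmin RPKM in KO and 49.3% to 54.9% in WT at day 7, and 55.8% to 61.8% and 44.0% to 53.7% at day 14, which restates their calls and supports nothing further. For each of the other shares whose groups were apart the exact two-sided permutation test gave p = 0.1, the smallest that 3 against 3 libraries allow (adjusted p = 0.191 over 21 tests of 7 shares on 3 days), so none could reach 0.05. These shares too are built on genes called in KO in the same libraries, so they largely restate those calls. Cplx1 passed the filter level in 4 KO and 0 WT libraries.

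**Figure D4:**
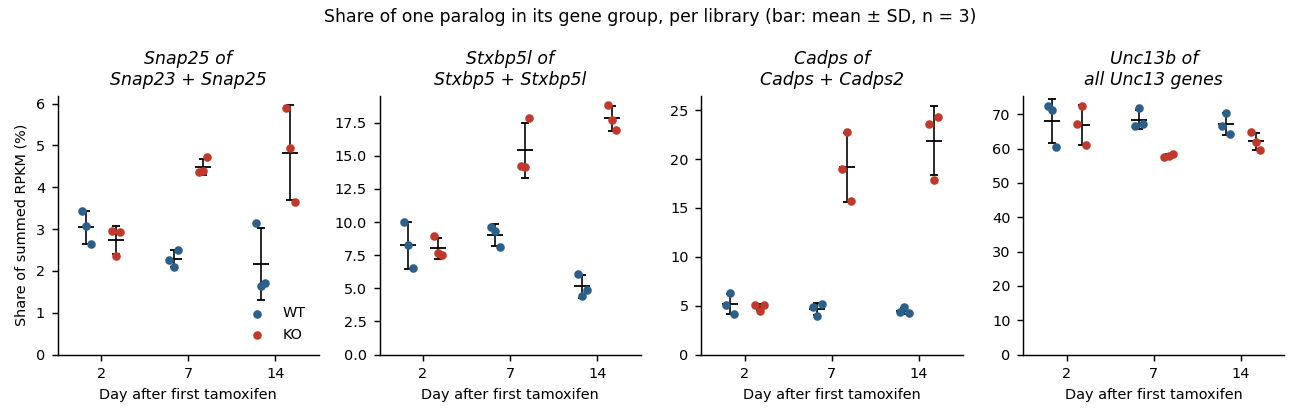
Share of 1 paralog in the summed RPKM of its gene group (percent, linear axis from 0), per library by day, with mean ± SD (n = 3; blue WT, red KO). At days 7 and 14 the KO libraries lie above WT for Snap25, Stxbp5l and Cadps; for Unc13b they lie below WT at day 7 and overlap at day 14.

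Around the members, 72 further genes of the fusion and granule pathway were counted, of which 67 were tested. At day 7, 14 of them were called higher and 10 lower (7.11% and 10.2% of all tested genes), and at day 14 18 and 4 (3.23% and 4.69% of all tested genes); the subgroup counts that follow are to be read against the same shares. Of the 32 fusion and priming partners 6 rose and 6 fell at day 7, and 8 and 2 at day 14. The active zone scaffolds Erc2 (2.55 and 2.45 at days 7 and 14), Ppfia3 (1.86 and 1.33), Rimbp2 (0.85 and 1.22) and Pclo (0.81 and 0.95) rose on both days, as did Rph3al, a Rab3 and Rab27 effector (0.57 and 0.59). Bsn (-0.55) and Ppfia2 (-1.63), scaffolds too, fell at day 7, and Napb, a SNAP that recycles SNARE complexes, fell on both days (-1.26 and -1.49). All these values are log2 fold changes of KO against WT.

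The CAPS genes, which prime dense-core vesicles, moved apart. Cadps measured 4.62, 5.93 and 4.72 CPM in KO and 3.71, 3.13 and 3.42 CPM in WT at day 7, and 8.91, 8.07 and 8.23 CPM against 3.40, 3.44 and 2.73 CPM at day 14. It rose by 0.57 (SE 0.19, adjusted p = 0.0469) and 1.40 (SE 0.20, adjusted p = 0.000183). Cadps2 measured 12.5, 12.8 and 16.1 CPM in KO and 45.9, 47.9 and 40.2 CPM in WT at day 7, and 18.3, 23.7 and 16.3 CPM against 47.1, 43.0 and 39.5 CPM at day 14. It fell by 1.69 (SE 0.15, adjusted p = 4e-07) and by 1.15 (SE 0.15, adjusted p = 6.53e-05), and no KO library of these days reached a WT library. The Cadps share of the pair was 15.7% to 22.8% in KO at day 7 and 17.8% to 24.3% at day 14, and 3.99% to 5.13% and 4.21% to 4.83% in WT.

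Of 11 genes for granule cargo and its processing 7 rose and 1 fell at day 7, and 8 rose and 0 fell at day 14, with medians of 1.03 and 1.10. Chga and Chgb, the granins that pack dense-core granules, rose by 1.03 and 1.37 at day 7 and by 1.78 and 1.57 at day 14; Ptprn, a granule membrane protein, by 2.05 and 2.37; and Cpe, a prohormone carboxypeptidase, by 1.07 and 0.99. Scg5, the chaperone of the convertase Pcsk2, fell at day 7 (-1.39, adjusted p = 0.013). Of 15 tested vesicle membrane proteins 1 rose and 2 fell at day 7 and 2 rose and 1 fell at day 14, Sv2c falling on both days (-1.79 and -0.96). Of the 9 exocyst subunits, which tether vesicles, only Exoc6 was called, lower on both days (-0.61 and -0.47).

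EEC markers moved with the members that rose. Of 14 EEC markers, 8 were called higher at day 7 and 10 at day 14, with medians of 0.94 and 1.23, and 4 of the 14 (Chga, Chgb, Scg2 and Scg3) are also among the cargo genes. Their sum was 557 to 644 CPM in KO and 244 to 264 CPM in WT at day 7, 644 to 779 CPM and 221 to 274 CPM at day 14, and 232 to 381 CPM and 238 to 363 CPM at day 2. The 6 members called higher on both days summed to 27.6 to 30.2 CPM in KO and 12.1 to 13.2 CPM in WT at day 7, and 26 to 32.1 CPM and 10.2 to 12.2 CPM at day 14. Per 100 CPM of EEC markers that sum was 4.70 to 5.19 in KO and 4.95 to 5.18 in WT at day 7, and 3.33 to 4.58 and 3.71 to 5.49 at day 14, with overlap of the groups on both days. The marker sum is carried by Chga and Chgb. At day 7 they averaged 141 and 388 CPM in KO, where the marker sum averaged 593 CPM. In WT they averaged 69.5 and 150 CPM, where the sum averaged 252 CPM. The ratio is therefore mainly to these granins. These 6 genes were chosen for being higher in KO, and the part of EEC number in their change was not tested.

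**Figure D5:**
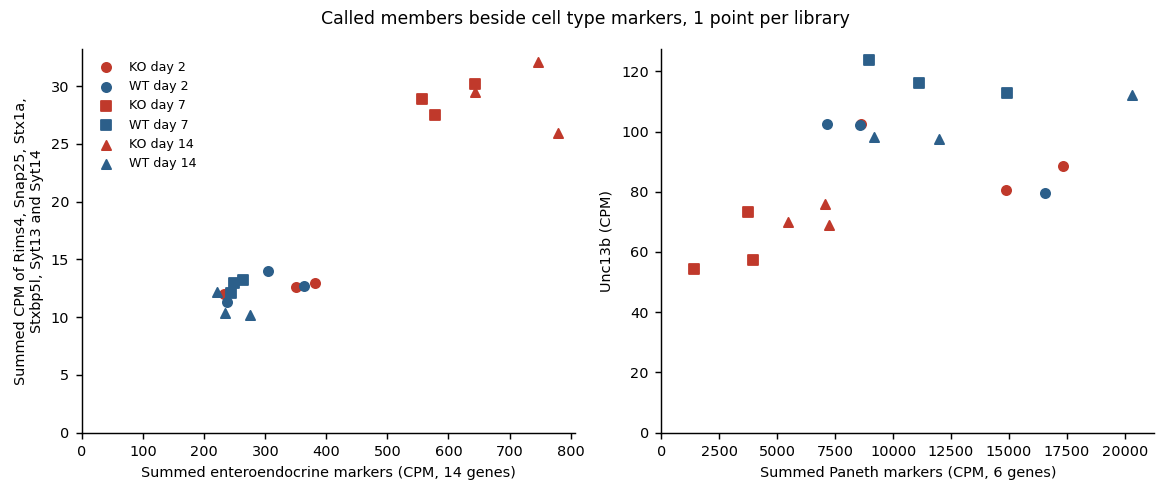
Left, summed CPM of Rims4, Snap25, Stx1a, Stxbp5l, Syt13 and Syt14 (y axis) against the summed CPM of 14 EEC markers (x axis); right, Unc13b (CPM) against the summed CPM of 6 Paneth markers; each point is 1 library, coloured by genotype and shaped by day. On the left the 6 KO libraries of days 7 and 14 stand apart at the upper right; on the right the same 6 are the lowest in Unc13b, none above 75.9 CPM.

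With Unc13b, the Paneth markers also moved. All 6 were called lower at day 7 and 1 of 6 at day 14, their sum being 1402 to 3957 CPM in KO and 8953 to 14925 CPM in WT at day 7 and 5466 to 7248 CPM and 9164 to 20336 CPM at day 14. At day 2, where Unc13b was not called, the sums were 8627 to 17329 CPM in KO and 7150 to 16561 CPM in WT. Of 6 stem cell markers 3 were called lower at day 7 and 1 at day 14, and of 8 enterocyte markers 2 were called higher and 1 lower at day 7 and 1 higher at day 14. The part of any of these cell types in the members' changes was not tested.

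Because many members are best known from neurons, markers of enteric neurons and glia were read as well. Of 10, only 5 were abundant enough to test; Ret and S100b were called higher at day 7 and Ret at day 14, and 1 of the 5 was called lower on each of these days. Their summed level was 8.67 to 12.7 CPM in KO and 5.18 to 7.53 CPM in WT at day 7 and 9.07 to 12.3 CPM and 4.90 to 7.63 CPM at day 14. Among T and NK cell, mast cell and myeloid markers 0 were called on any day, and of 6 tested stromal and endothelial markers 1 was called higher at day 7. Goblet cells had 2 of 7 markers lower at day 7 and 1 at day 14, and tuft cells 2 of 8 lower at day 7; how these bear on the members was not tested.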

How the data were processed

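Ribosome-depleted total RNA of small intestinal crypts was sequenced in 18 libraries (6 groups of 3 mice). The authors aligned reads to mm10 with STAR 2.7.3 and deposited raw counts per gene from featureCounts 1.6.4, counting fragments without regard to strand and without multi-mapping reads; HTSeq is also listed, with no version. The file header names GENCODE release 23 and the methods release 26. Depth is the sum of counts of a library, 12844642 to 31493484, and intervals cover counting error only.

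Before scaling, 20 genes on the study's list of sex-dependent genes were left out. Counts were filtered by group (filterByExpr), scaled by TMM and fitted over all 18 libraries with edgeR 4.0.16 (R 4.3.3) by its robust quasi-likelihood test; p-values were adjusted over 21349 genes (Benjamini-Hochberg, threshold 0.05). The 18 libraries share 1 estimate of spread per gene. Paralog shares were tested by exact permutation, two-sided. The scripts were tested on simulated data. Genes named are members called in any comparison of KO with WT or of days, the most abundant member of each role group, Prmt1, and Stx1a, Snap25, Vamp2, Syt7, Rab3a and Rab27a; pathway genes outside the family are named only where called, and not all that were. Some genes of the family and of the marker lists are counted but not reported here by name. The members and lists were chosen with earlier results of these data known. Alternatives were DESeq2 1.42.0 and its size factors, other filters, leaving out the 20 most abundant genes, a model of only the groups compared, each library left out, and a replicate block; a block inside each day was added after seeing the data. Promoter windows are from RefSeq (GRCm38.p6).

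Same-numbered KO and WT libraries were checked for shared deviations from their group means. The correlations were 0.0478, 0.158 and 0.381 at day 2, -0.159, 0.206 and 0.0787 at day 7 and 0.227, 0.180 and 0.159 at day 14. Every pair passed a limit of 0.1 at day 14 only. Libraries with different numbers were not compared, and the labels do not say what the numbers mark, so no pairing is established.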

Additional observations from a re-analysis of the deposited data

Results flagged for a closer look

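For 4 genes the KO effect differed between day 2 and day 7 by a test of the difference itself (the quasi-likelihood test of edgeR, adjusted by Benjamini-Hochberg). On the log2 scale the effect at day 7 minus that at day 2 was -0.87 for Unc13b, 1.52 for Syt5, 1.44 for Syt14 and 1.11 for Stxbp5l. These are 4 of 61 genes, where 4.37% of all tested genes were called. With 1 of the 12 libraries left out the call was lost in 9 of 12 cases for Syt5, 9 for Syt14, 8 for Stxbp5l and 1 for Unc13b, and with the replicate number as a block it was lost for Syt5 and Syt14. Different mice were used on the 2 days. All 3 KO libraries were on the called side of WT at day 7 for each gene, and each gene was itself called on that day. Groups of 3 libraries are too small for the search for single samples far from their group.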

How the results depend on the processing

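For KO against WT at days 2, 7 and 14, 1195 values of 26 named members and of Prmt1 were recomputed under alternatives. Of these, 41 lost their call, 6 gained one and 1148 stayed on their side of the threshold. The lost calls include those of Prmt1 with a library left out, 6 at day 2 and 1 at day 7. Comparisons between days are not in this count. None called changed sign, while 44 of the 1148, called in neither setting, did, 38 of them with a library left out. With a mean count of at least 50, 5 members were called higher at day 7, Cplx1, Rims4, Snap25, Syt14 and Syt8 no longer being tested. With no filter 2 were lower at day 7 (Syt15 added). In WT at day 7 against day 2, where the main count was 0, 5 were called with no filter, 2 with a mean count of at least 50, 3 with only the groups compared and 4 by DESeq2. Over all genes these settings called 419 higher and 593 lower of 39046, 273 and 221 of 14245, 253 and 323 of 20060, and 670 and 785 of 21349. At day 14 against day 2 the member counts were 1 with no filter, 2 with the mean count and 6 by DESeq2. Over all genes these settings called 398 higher and 613 lower, 369 and 401, and 626 and 747. With each library left out, 7 to 10 members were called higher and 1 to 1 lower at day 7, 6 to 9 higher and 0 to 1 lower at day 14, 0 to 4 in the change from day 2 to 7, and 0 to 1 in each WT comparison; the counts stayed 0 at day 2 and from day 7 to 14. With the replicate number as a block 10 were higher and 1 lower at day 7, 8 and 1 at day 14. With the block inside each day the counts were 9 and 1, and 10 and 1, and 4 in the change from day 2 to 7, with Snap25 added and Syt14 lost (adjusted p = 0.0408 and 0.0742); beyond the values given with the results the block changed no call of a member. The all-gene count at day 2 was 7, and 2 to 16 under the alternatives. Genes with few counts (Rims4, Syt8, Cplx1) are limited by depth, and 3 mice per group limit small differences.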

Other observations

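Outside the rule for named genes, Sytl1, a Rab27 effector, was close to a call at day 14 (0.48, SE 0.15, adjusted p = 0.0515) and was called by DESeq2 (0.50, adjusted p = 0.0186). It is named after its values were seen. In WT it was also higher at day 7 than at day 2 by 0.55, a difference not called by edgeR (adjusted p = 0.0653) but called by DESeq2 (adjusted p = 0.0143).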
